A study of Homo sapiens with 18 samples.

Results

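Olaparib and veliparib, both inhibitors of poly(ADP-ribose) polymerases, were compared directly with each other in LNCaP cells, a human prostate cancer line that responds to androgen. The comparison used the 2 olaparib and the 2 veliparib libraries, which are 4 of the 18 libraries of the series, and took all genes with a mean of at least 1 CPM (a read count scaled to library size) over the inhibitor table, 13337 of 21391 features. Olaparib cells received 10 uM olaparib for 24 h, veliparib cells received 10 uM veliparib for 24 h, and DMSO cells received the solvent for 24 h and serve here as a level only. All 3 groups were unmodified LNCaP cells in RPMI with 10% fetal bovine serum, so androgens of the serum were present in each. The series calls the 2 libraries of a group biological duplicates, but nothing states that they came from separate cultures, so p-values measure the spread between these libraries only. The 2 UPF1069 libraries of the same table entered the estimate of the spread and nothing else. One pair of compounds at one dose and one time was compared, and a single cell line limits the model.

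PARP1 and PARP2 are nuclear enzymes that split NAD and build ADP-ribose chains on target proteins, mainly where DNA is broken. Olaparib is built on a phthalazinone and veliparib on a benzimidazole carboxamide, and both occupy the NAD site of PARP1 and PARP2. They are known to differ in how strongly they hold PARP on DNA, a property called trapping, which is stronger for olaparib. In prostate cells the androgen receptor, a ligand-activated transcription factor, switches on kallikreins and other luminal secretory genes, and PARP1 has been described as a cofactor of that receptor.

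The spread between libraries differed between the groups. Depth was 26.4 to 35.7 M reads over the inhibitor libraries, so that 3 reads made 0.0841 to 0.113 CPM, a floor that covers counting error only. The chi-square per gene between the 2 libraries of a group, which is 1 under counting noise alone, averaged 2.15 for olaparib, 6.38 for veliparib and 1.66 for DMSO. Between the 2 veliparib libraries the difference followed the GC content of the transcript (Spearman's rho -0.51 across 13075 genes), against 0.119 for olaparib and 0.116 for DMSO. Genes are not independent replicates, so these values describe the libraries. Each result was therefore also computed with each veliparib library left out. For the 13075 genes with known GC content and length, it was also computed with every library corrected for both.

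Of the 13337 genes, 4229 (31.7%) were higher and 3700 (27.7%) lower with olaparib than with veliparib, so 59.5% passed limma at an adjusted p below 0.05. Most of these differences were small: the median size among called genes was 0.33 on the log2(CPM + 1) scale, on which all differences below are given and which makes changes of weak genes look smaller than they are. At least 2-fold differences were rare, with 88 genes (0.66%) higher and 196 genes (1.47%) lower with olaparib. In all 284 of them the libraries of the 2 compounds did not overlap, which was true of 76.2% of all genes tested. Over all genes the difference had a median of 0.02, and its 5th and 95th percentiles were -0.62 and 0.58.

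**Figure D1:**
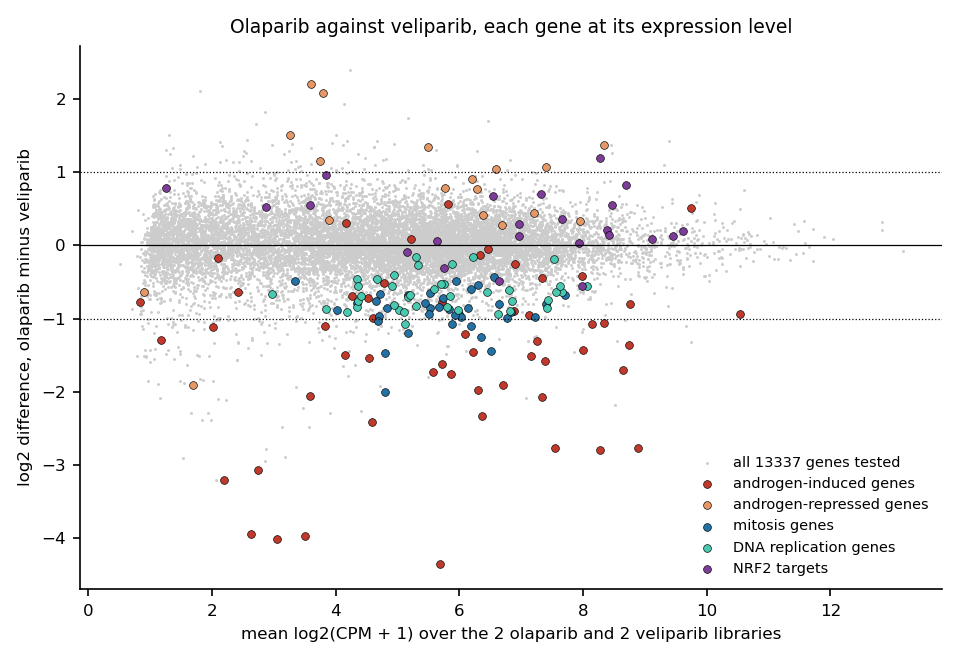
Each point is 1 of the 13337 genes, with its mean log2(CPM + 1) over the 4 libraries on the horizontal axis and the log2 difference olaparib minus veliparib on the vertical axis. Dotted lines mark 2-fold. Androgen-induced genes (red) reach -4.35, and the mitosis (blue) and DNA replication (green) genes all lie below 0.

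The genes that stood 2-fold or more apart were mainly those in which olaparib cells had left the DMSO level. Among the 284, the veliparib mean was nearer to DMSO than the olaparib mean in 262 (92.3%), against 57.8% of all genes tested. Their median distance from DMSO was 1.19 for olaparib and 0.17 for veliparib on the log2 scale. The share was 77 of 88 among the genes higher with olaparib and 185 of 196 among those lower with it. Both distances are measured from the same DMSO libraries, and neither was tested.

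**Figure D2:**
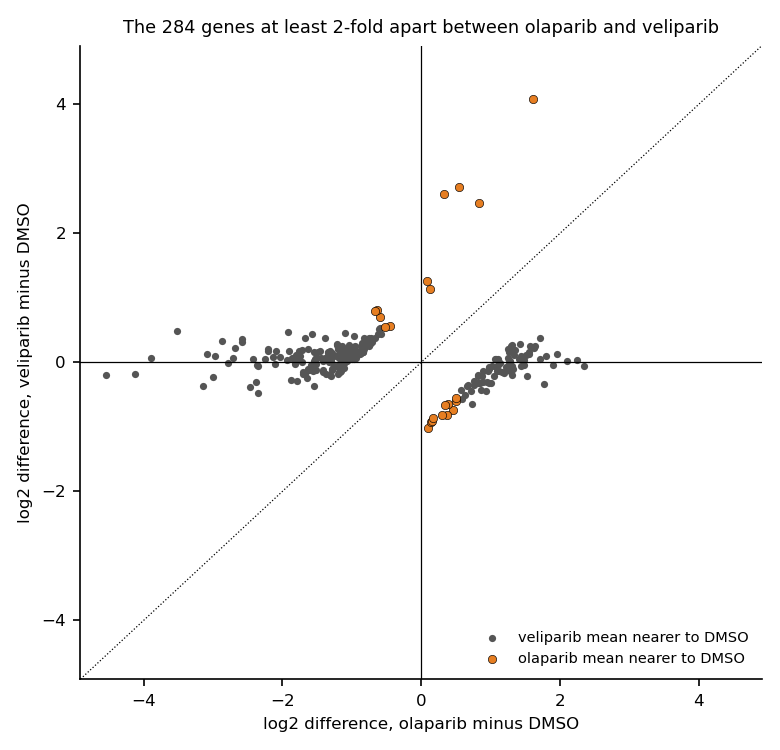
For the 284 genes at least 2-fold apart, the log2 difference of olaparib from DMSO (horizontal) is set against that of veliparib from the same DMSO libraries (vertical). The 262 grey points lie nearer to 0 on the veliparib axis, and the 22 orange points are genes in which olaparib was nearer to DMSO.

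The 22 exceptions, in which veliparib cells stood farther from DMSO, were 11 higher and 11 lower with olaparib. The higher ones include FTH1, CHAC1, DDIT4 and JUND, whose veliparib means lay below DMSO and which are described with their groups below. With the GC and length correction CHAC1, DDIT4 and JUND stood at 0.93, 0.86 and 0.61, all under 2-fold, and FTH1 at 1.18. In the 1308 genes of highest GC content the veliparib median was -0.34 from DMSO. Among the lower ones are the structural RNAs RNA28S5 and RN7SL1 and the centromere genes CENPE and CENPF, whose veliparib means lay above DMSO. Of the 22, 4 have an identifier alone. The genes given here were chosen after their values were seen, apart from those that also appear below.

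Androgen-induced genes showed the largest differences of the comparison. Of 54 measured members, 48 were lower with olaparib than with veliparib, 33 of them at least 2-fold, 3 were higher and 3 were not called. Over all genes 27.7% were lower, 1.47% were at least 2-fold lower and 31.7% were higher. The median difference was -1.29, against 0.02 over all genes. Set against DMSO, the same members had a median of -1.30 with olaparib and 0.05 with veliparib. The list was assembled with the behaviour of these genes in the data known, so its count describes them and is no independent evidence.

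KLK2 and KLK3, neighbouring kallikrein genes whose products are secreted proteases and of which KLK3 encodes prostate-specific antigen, are shown first because KLK2 had the largest difference of the list and because an element for the androgen receptor is known in both promoters. The sequences are the 250 bases upstream of the RefSeq start in GRCh38.p14, KLK2 at chr19:50873189-50873438 and KLK3 at chr19:50854665-50854914, both on the plus strand. Capitals mark the match to the letters GNACA, 4 bases of any kind and GTNC, with N for any base, a loose form of the androgen response element, searched on both strands.

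KLK2: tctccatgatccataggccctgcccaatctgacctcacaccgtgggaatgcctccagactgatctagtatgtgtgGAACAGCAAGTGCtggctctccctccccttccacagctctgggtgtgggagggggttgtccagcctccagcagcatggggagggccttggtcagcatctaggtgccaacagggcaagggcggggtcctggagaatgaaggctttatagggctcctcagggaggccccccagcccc
KLK3: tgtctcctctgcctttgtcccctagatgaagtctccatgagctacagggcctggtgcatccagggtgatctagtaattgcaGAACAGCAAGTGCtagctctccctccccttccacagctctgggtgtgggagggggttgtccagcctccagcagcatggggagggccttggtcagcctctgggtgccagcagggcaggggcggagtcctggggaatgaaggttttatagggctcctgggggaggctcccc

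Both promoters hold the same 13 letters, GAACAGCAAGTGC, from base 175 to base 163 upstream of the start in KLK2 and from base 169 to base 157 in KLK3. The motif occurred in 634 of 35116 promoters of this length (1.81%) and in 230 of 13866 promoters of tested genes (1.66%). Of 79 promoters of the 38 androgen-induced genes that matched the table by symbol, 4 held it (5.06%), those of KLK2 and KLK3 among them. Of 191 promoters of genes at least 2-fold lower with olaparib, 5 held it (2.62%). The 6 letters AGAACA, searched in the same way, occurred in 10.1% of the 79 promoters, 11.5% of the 191, 7.98% of those of tested genes and 12.4% of all. Both are descriptions of letters and not of binding.

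KLK2 was at 9.87 and 10.9 CPM in olaparib cells, against 224 and 239 CPM in veliparib cells and 258 and 271 CPM in DMSO cells. Both olaparib libraries lay far below every other library, and the difference of -4.35 (SE 0.05, adjusted p = 1.69e-25 with limma) was the largest in size among the 13337 genes. On the linear scale veliparib cells had 22.3 times the KLK2 level of olaparib cells. KLK3 was at 181 and 179 CPM with olaparib, 1177 and 1282 CPM with veliparib and 1429 and 1444 CPM with DMSO, a difference of -2.77 (SE 0.04).

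TMPRSS2, a membrane protease whose promoter is fused to ERG in many prostate tumours though not in LNCaP, stood at 70.3 and 71.2 CPM with olaparib, 476 and 502 CPM with veliparib and 493 and 493 CPM with DMSO. Its veliparib and DMSO levels differed by -0.01 (SE 0.04), and the difference between the compounds was -2.77 (SE 0.04). FKBP5, a co-chaperone of steroid receptors, had 53.5 and 52 CPM with olaparib, 202 and 197 CPM with veliparib and 172 and 180 CPM with DMSO, a difference of -1.90 (SE 0.04). In these genes the olaparib libraries lay below all others, while veliparib and DMSO libraries overlapped in TMPRSS2 and veliparib lay slightly above DMSO in FKBP5.

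Several members were at a few CPM or less with olaparib. TRPM8, a cold-sensing calcium channel, had 1.82 and 1.91 CPM with olaparib, 45.1 and 42.2 CPM with veliparib and 42.6 and 40.7 CPM with DMSO. CHRNA2, a nicotinic receptor subunit, had 0.575 and 0.588 CPM with olaparib, 22.7 and 24.1 CPM with veliparib and 26.1 and 27.3 CPM with DMSO. ADAM7, a metalloprotease-like membrane protein, was at 0.999 and 1.15 CPM with olaparib, 32.1 and 32.4 CPM with veliparib and 23.8 and 21.8 CPM with DMSO. The linear ratios of veliparib to olaparib were 23.5 for TRPM8, 40.2 for CHRNA2 and 30.1 for ADAM7.

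The other leading genes lower with olaparib also had their lowest levels in the olaparib libraries. HPGD, which breaks down prostaglandins, had 0.545 and 0.448 CPM with olaparib, 13.2 and 12.5 CPM with veliparib and 9.51 and 10.4 CPM with DMSO. ST6GALNAC1, a sialyltransferase, fell by 3.06 (SE 0.08), the coagulation factor F5 fell by 2.89 (SE 0.08), TM4SF1, a tetraspan membrane protein, fell by 2.78 (SE 0.08) and AFF3, a nuclear elongation factor, fell by 2.47 (SE 0.08) relative to veliparib. CCDC141 had 0.0605 and 0.056 CPM in olaparib cells, which is under the floor of 3 reads, against 6.97 and 6.79 CPM in veliparib cells and 5.6 and 5.94 CPM in DMSO cells, and no ratio is given. TARP and ZNF812 also ranked here, with -3.21 (SE 0.09) and -2.95 (SE 0.08), and are uncertain: TARP overlaps the T-cell receptor gamma locus, and the identifier of ZNF812 is a pseudogene in GENCODE.

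The 3 androgen-induced members higher with olaparib, named after their values were seen, were ACPP (prostatic acid phosphatase), STEAP2 (a metalloreductase) and PLA2G2A (a secreted phospholipase), with differences of 0.56 (SE 0.05), 0.51 (SE 0.05) and 0.31 (SE 0.07). MAP7, a microtubule-binding protein, and LIFR, a cytokine receptor, were not called, with intervals of -0.14 to 0.04 and -0.04 to 0.22. LIFR was called higher under the GC and length correction, at 0.25, and without veliparib library 1, at 0.18. The count of 48 lower members was 48 without either veliparib library, and 48 after the GC and length correction, whose median was -1.28.

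**Figure D3:**
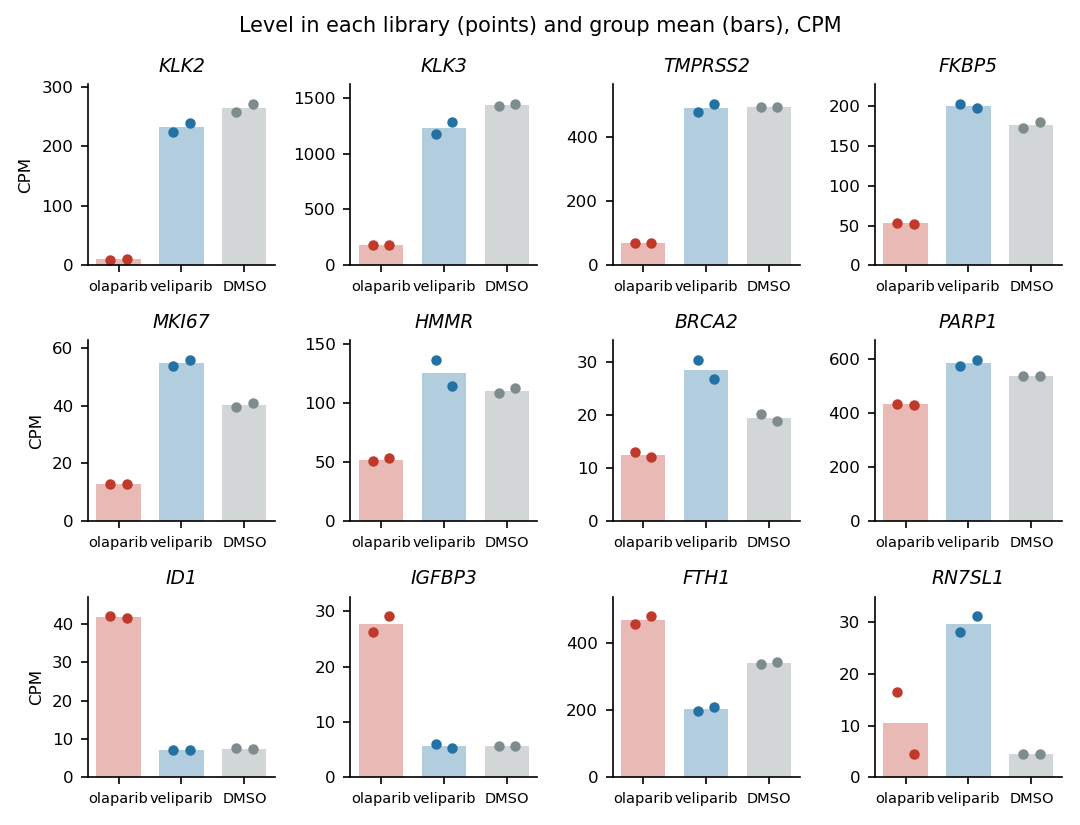
CPM of 12 genes in each library (points) with the group mean (bars) for olaparib, veliparib and DMSO; each panel has its own axis, starting at 0. The 4 androgen-induced genes in the top row are low with olaparib only, ID1 and IGFBP3 are high with olaparib only, and the 2 olaparib libraries of RN7SL1 lie far apart at 16.4 and 4.51 CPM.

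Genes known to be repressed by androgen went the other way. All 18 measured members were called, 16 higher and 2 lower with olaparib than with veliparib, and 8 of the 16 were at least 2-fold higher. Over all genes 31.7% were higher, 27.7% were lower and 0.66% were at least 2-fold higher. Their median difference was 0.85, and against DMSO it was 0.98 with olaparib and 0.06 with veliparib. This list, too, was chosen with these results known.

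NTS, the peptide neurotensin, had 25.8 and 24.1 CPM with olaparib, 5.36 and 4.0 CPM with veliparib and 4.29 and 4.71 CPM with DMSO, a difference of 2.20 (SE 0.10). IGFBP3, which binds insulin-like growth factors, had 26.2 and 29.2 CPM with olaparib, 6.11 and 5.4 CPM with veliparib and 5.71 and 5.59 CPM with DMSO. OPRK1, the kappa opioid receptor, had 14.8 and 15.4 CPM with olaparib, 4.36 and 4.94 CPM with veliparib and 5.32 and 4.29 CPM with DMSO. In each of the 3 the olaparib libraries lay above all others, and those of veliparib and DMSO lay in one range.

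The 2 members that fell were UGT2B28, with a difference of -1.90 (SE 0.11), and TNFSF10, the death ligand TRAIL, with -0.63 (SE 0.13), the second named after its values were seen. UGT2B enzymes attach glucuronic acid to androgens and other steroids. Of 7 glucuronidation genes, 3 were higher (42.9%) and 2 lower (28.6%), against 31.7% and 27.7% of all genes. UGT2B15 had 68.2 and 72.5 CPM with olaparib, 41.4 and 39.1 CPM with veliparib and 31.6 and 36.2 CPM with DMSO. UGT2B17 had 99.9 and 101 CPM with olaparib, 62.1 and 54.6 CPM with veliparib and 49.4 and 51.4 CPM with DMSO. UGT2B11 fell by 1.35 (SE 0.11), and since these paralogs are alike in sequence, the counting can have split reads between them.

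Factors that work beside the androgen receptor were mixed. FOXA1, the pioneer factor that opens chromatin for the receptor, had 409 and 423 CPM with olaparib, 298 and 275 CPM with veliparib and 340 and 340 CPM with DMSO, a difference of 0.54 (SE 0.04). GATA2, another factor that binds beside the receptor, differed by 0.65 (SE 0.04), or 0.48 with the GC and length correction. GATA2 differed from DMSO by 0.21 with olaparib and -0.44 with veliparib.

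Of the 16 receptor cofactors and luminal factors measured, 6 were higher (37.5%) and 8 lower (50%) with olaparib, none by 2-fold. Among all genes 31.7% were higher and 27.7% lower. The median of the 16 was -0.05. SPDEF, an ETS factor of prostate epithelium, stood at 54.1 and 53 CPM with olaparib, 93.6 and 96.5 CPM with veliparib and 130 and 135 CPM with DMSO. CREB3L4, a bZIP factor of the endoplasmic reticulum, fell by 0.81 (SE 0.05) relative to veliparib. GRHL2, an epithelial factor, had an interval of -0.08 to 0.08, so a difference of the size seen in FOXA1 lies outside it.

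The targets of both compounds were themselves lower with olaparib. PARP1 had 433 and 431 CPM with olaparib, 573 and 597 CPM with veliparib and 537 and 536 CPM with DMSO, a difference of -0.44 (SE 0.04, adjusted p = 6.76e-10 with limma). PARP2 had 28.9 and 28.5 CPM with olaparib, 39.4 and 41.7 CPM with veliparib and 42.5 and 42.2 CPM with DMSO, a difference of -0.48 (SE 0.05). For both genes the olaparib libraries were the lowest. Transcript levels say nothing of enzyme inhibition.

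Among 15 tested members of the PARP family, 8 were higher (53.3%) and 5 lower (33.3%) with olaparib, against 31.7% and 27.7% of all genes. The median of 0.17 turned to -0.08 under the GC and length correction, so the family as a whole had no direction that held. PARP8 and PARP3 were higher by 0.62 (SE 0.09) and 0.48 (SE 0.07), and PARP12 had an interval of -0.15 to 0.09. PARP14, a mono-ADP-ribosyltransferase, had 2.66 and 2.24 CPM with olaparib and 4.04 and 4.08 CPM with veliparib, a difference of -0.55 (SE 0.11). PARP14 differed from DMSO by -0.17 with olaparib and 0.39 with veliparib. Of 18 genes of NAD and ADP-ribose metabolism, 7 were higher and 4 lower, with a median of 0.08; the 61.1% called were near the 59.5% of all genes. MACROD1, which removes ADP-ribose from proteins, and the NAD-dependent deacylases SIRT6, SIRT2 and SIRT3 were higher with olaparib than with veliparib by 0.76, 0.61, 0.60 and 0.51. In that order they differed from DMSO by 0.31, 0.15, 0.40 and 0.28 with olaparib, and by -0.45, -0.46, -0.19 and -0.23 with veliparib. With the correction MACROD1 stood at 0.40 and SIRT6 at 0.30. NADK, which makes NADP, had an interval of 0.00 to 0.15.

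Cell-cycle genes formed the second large block. All 40 measured DNA replication genes and all 37 mitosis genes were lower with olaparib than with veliparib, where 27.7% of all genes were. The median differences were -0.66 for replication and -0.86 for mitosis, and with the GC and length correction -0.65 and -0.82. Relative to DMSO the medians were -0.68 and -0.80 with olaparib and -0.02 and 0.05 with veliparib. In bulk libraries fewer cells in a phase and less RNA per cell cannot be told apart. Without either veliparib library 37 mitosis genes and 39 replication genes were called lower.

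MKI67 and HMMR are shown here because mitosis genes share known promoter letters, the CCAAT box and the TTTGAA of the cell-cycle homology region. The sequences are the 250 bases upstream of the RefSeq start in GRCh38.p14, HMMR at chr5:163460382-163460631 on the plus strand and MKI67 at chr10:128126424-128126673 on the minus strand. Capitals mark CCAAT and TTTGAA on either strand, where ATTGG is CCAAT read from the other one.

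HMMR: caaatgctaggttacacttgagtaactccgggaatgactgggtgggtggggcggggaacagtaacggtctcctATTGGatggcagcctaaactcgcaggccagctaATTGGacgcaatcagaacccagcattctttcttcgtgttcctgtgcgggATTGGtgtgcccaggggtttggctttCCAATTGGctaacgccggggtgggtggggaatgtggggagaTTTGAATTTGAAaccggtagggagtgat
MKI67: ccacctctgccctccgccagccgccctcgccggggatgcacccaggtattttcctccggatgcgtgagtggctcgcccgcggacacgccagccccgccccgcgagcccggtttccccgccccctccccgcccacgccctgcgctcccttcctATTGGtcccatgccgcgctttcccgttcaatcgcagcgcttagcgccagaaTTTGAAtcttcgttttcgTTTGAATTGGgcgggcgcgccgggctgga

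HMMR holds 5 matches to CCAAT and 2 to TTTGAA, and MKI67 holds 2 of each. One pair of matches overlaps in each promoter. Both motifs occurred in 16 of 37 promoters of the 31 mitosis genes that matched by symbol (43.2%), in 465 of 13866 promoters of tested genes (3.35%) and in 1646 of all 35116 (4.69%). Of 191 promoters of genes at least 2-fold lower with olaparib, 11 held both (5.76%). The E2F letters TTTCCCGC occurred in 9 of 48 promoters of 35 replication genes (18.8%), against 2.1% of the promoters of tested genes. TTTCCCGC was found in 1 of the 37 mitosis promoters (2.7%). A match is no evidence that a factor binds.

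MKI67, the proliferation marker Ki-67 that coats mitotic chromosomes, had 12.9 and 12.8 CPM with olaparib, 53.6 and 55.7 CPM with veliparib and 39.3 and 41 CPM with DMSO. The difference of -2.01 (SE 0.06, adjusted p = 4.08e-18 with limma) was the largest of the mitosis list, and the veliparib libraries lay above DMSO by 0.43. CENPF, a kinetochore protein, had 53.9 and 54.2 CPM with olaparib, 153 and 144 CPM with veliparib and 85.1 and 83.9 CPM with DMSO. CENPE, a kinetochore motor, had 14.8 and 16.7 CPM with olaparib, 48.3 and 42.4 CPM with veliparib and 25.2 and 26 CPM with DMSO. In CENPE and CENPF the olaparib level was below DMSO and the veliparib level above it. The differences of -1.47 (SE 0.07) and -1.44 (SE 0.04) thus have a part on either side. With the GC and length correction CENPE, CENPF and MKI67 stood at -1.34, -1.24 and -1.87. The GC contents of CENPE and CENPF are 35.3% and 40.8%. In the 1308 genes of lowest GC content the veliparib median was 0.12 from DMSO, and its part here was not tested. HMMR, a spindle and hyaluronan-binding protein, had 50.7 and 53.6 CPM with olaparib, 137 and 114 CPM with veliparib and 109 and 113 CPM with DMSO.

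Replication genes differed less among themselves, between -1.08 and -0.15. MCM10, needed to start replication forks, had 22.8 and 23 CPM with olaparib, 51.1 and 48.1 CPM with veliparib and 40.7 and 42.4 CPM with DMSO, the only member at least 2-fold lower. FEN1, the flap endonuclease of Okazaki fragments, had 70.1 and 69.7 CPM with olaparib, 130 and 140 CPM with veliparib and 134 and 131 CPM with DMSO. GINS2 of the replicative helicase and the primase subunit PRIM2 fell by 0.91 (SE 0.06) and 0.90 (SE 0.06) relative to veliparib.

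Among the drivers of the cycle more were lower than higher. Of 26 cyclins, kinases, inhibitors and E2F factors, 14 were lower (53.8%) and 4 higher (15.4%) with olaparib, against 27.7% and 31.7% of all genes. Their median was -0.22, and with the GC and length correction 16 were lower and 4 higher. E2F7 and E2F8, repressors that are made in S phase, fell by 1.18 (SE 0.07) and 1.05 (SE 0.10), and E2F2, an activator, fell by 0.86 (SE 0.08). CCND1, the cyclin of the G1 phase, had 241 and 241 CPM with olaparib, 249 and 244 CPM with veliparib and 266 and 261 CPM with DMSO and was not called, with an interval of -0.10 to 0.04. CDK4, its kinase, had an interval of -0.09 to 0.08. The 4 higher members, named after their values were seen, were the kinase inhibitors CDKN2B, CDKN2A and CDKN1B at 0.64, 0.43 and 0.42, and the cyclin CCND3 at 0.15.

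Double-strand break repair genes were mostly lower with olaparib as well. Of 36 homologous recombination and Fanconi genes, 32 were lower and 2 higher with olaparib, where 27.7% and 31.7% of all genes were, with a median of -0.53 and, with the correction, -0.48. BRCA2, a core recombination protein, had 13 and 12.1 CPM with olaparib, 30.4 and 26.7 CPM with veliparib and 20.2 and 18.8 CPM with DMSO, a difference of -1.12 (SE 0.08). BRCA1 had 29.8 and 29.4 CPM with olaparib, 63.1 and 57.1 CPM with veliparib and 50.3 and 53.6 CPM with DMSO. BRCA2 differed from DMSO by -0.59 with olaparib and by 0.52 with veliparib on the log2 scale. With the correction the BRCA2 difference between the compounds was -0.94 in place of -1.12. RAD51AP1 and RAD54L, which assist strand exchange, fell by 1.0 (SE 0.07) and 0.95 (SE 0.06) relative to veliparib. The higher members, named after their values were seen, were FANCF and BARD1, at 0.26 and 0.22.

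Other repair pathways showed smaller differences. In end joining and mismatch repair, 13 of 16 members were lower (81.2%) and 1 higher (6.25%), with a median of -0.24. Of all genes 27.7% were lower and 31.7% higher. With the GC and length correction 10 members were lower and 1 higher, with a median of -0.18. Against DMSO the medians were -0.15 with olaparib and 0.18 with veliparib. POLQ, the polymerase of microhomology-mediated joining, had 21.1 and 22.9 CPM with olaparib, 50.8 and 48.4 CPM with veliparib and 37.9 and 39.6 CPM with DMSO. PRKDC, the kinase of classical end joining, had 528 and 534 CPM with olaparib, 798 and 780 CPM with veliparib and 609 and 606 CPM with DMSO, a difference of -0.57 (SE 0.03). With the GC and length correction POLQ went from -1.14 to -0.96 and PRKDC from -0.57 to -0.39. PRKDC differed from DMSO by -0.19 with olaparib and 0.38 with veliparib. LIG4, its ligase, was not called, with an interval of -0.18 to 0.13. In base excision and single-strand break repair, the pathway that PARP1 serves, 11 of 21 were lower (52.4%) and 6 higher (28.6%). PCNA, the sliding clamp, fell by 0.63 (SE 0.04), whereas the glycosylase MPG was higher by 0.79 (SE 0.06), or 0.46 with the correction, and differed from DMSO by 0.22 with olaparib and -0.57 with veliparib. NTHL1, another glycosylase, had an interval of -0.12 to 0.15, but stood at -0.27 and was called lower under the correction.

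p53 targets had called members in both directions, more of them lower. Of 35 measured, 17 were lower (48.6%), 8 higher (22.9%) and 10 not called, with a median of -0.10. Over all genes 27.7% were lower and 31.7% higher. With the GC and length correction 20 p53 targets were lower and 6 higher, with a median of -0.15. CDKN1A, the cycle inhibitor p21, had 330 and 332 CPM with olaparib, 350 and 356 CPM with veliparib and 310 and 311 CPM with DMSO. Its difference of -0.09 (SE 0.03, adjusted p = 0.0242 with limma) lost its call without olaparib library 1 or 2, at -0.09 and -0.10. The call was also lost without either UPF1069 library. With array weights and with only the 4 libraries compared, limma gave adjusted p = 0.0518 and 0.122. Under the GC and length correction the difference was -0.24, with adjusted p = 1.07e-08 from limma. FAS, a death receptor, differed by -0.96 (SE 0.09), and from DMSO by -0.47 with olaparib and 0.49 with veliparib. PLK2, a polo-like kinase, fell by 0.93 (SE 0.05) relative to veliparib, while SESN1, a stress-induced inhibitor of growth signalling, was higher by 0.81 (SE 0.05). CCNG1, a p53-induced cyclin, had an interval of -0.16 to 0.02.

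**Figure D4:**
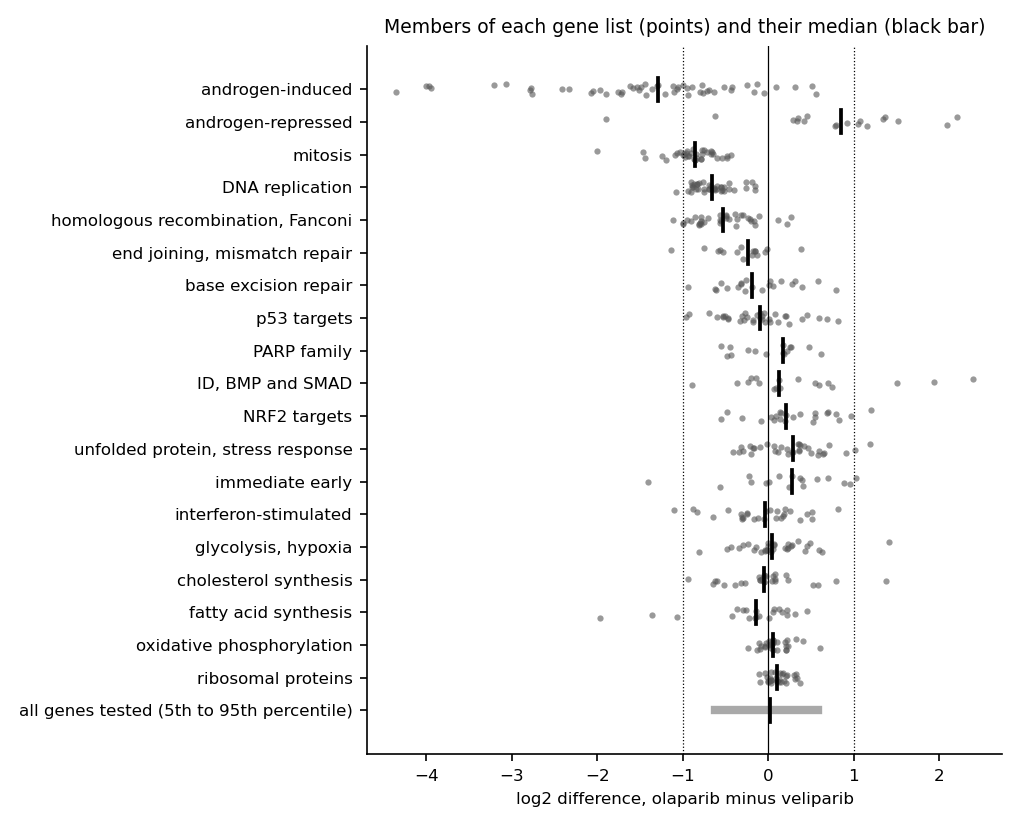
Log2 differences olaparib minus veliparib of the tested members of 19 gene lists (points, spread vertically at random) with each median as a black bar; the grey bar gives the 5th to 95th percentile of all genes, -0.62 to 0.58. The androgen-induced median lies at -1.29, and all points of mitosis and DNA replication lie left of 0.

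The largest positive difference among the 13337 genes was that of ID1. ID proteins bind bHLH transcription factors and keep them from DNA, and bone morphogenetic proteins are their best known inducers. ID1 had 42.1 and 41.7 CPM with olaparib, 7.11 and 7.21 CPM with veliparib and 7.57 and 7.38 CPM with DMSO, a difference of 2.39 (SE 0.08, adjusted p = 3.57e-17 with limma). ID3 had 35.5 and 31 CPM with olaparib, 8.04 and 7.85 CPM with veliparib and 7.16 and 9.35 CPM with DMSO. ID2 had 24.8 and 27.5 CPM with olaparib, 9.18 and 7.96 CPM with veliparib and 8.96 and 9.03 CPM with DMSO. For all 3 the olaparib libraries lay above every other library. Veliparib and DMSO libraries overlapped in ID2 and ID3, and in ID1 both veliparib libraries lay slightly below DMSO.

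The other members of the same list were mixed. Of 18 ID, BMP and SMAD genes, 9 were higher (50%) and 4 lower (22.2%), against 31.7% and 27.7% of all genes. Their median was 0.13, and the 3 ID genes were the members at least 2-fold higher. The receptor BMPR1B fell by 0.89 (SE 0.04), and SMAD4, the common mediator, had an interval of -0.05 to 0.18. SMAD4 was called higher, at 0.25, under the GC and length correction.

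Insulin-like growth factor genes were split. IGF1R, the receptor, had 10.3 and 10.1 CPM with olaparib, 33.5 and 34.2 CPM with veliparib and 31.3 and 29.4 CPM with DMSO, a difference of -1.64 (SE 0.06). IGF1 fell by 1.49 (SE 0.11) relative to veliparib. GRB10, an adaptor that dampens insulin signalling, had 517 and 525 CPM with olaparib, 200 and 203 CPM with veliparib and 213 and 208 CPM with DMSO. IGF2R, which clears IGF2, had an interval of -0.06 to 0.09, but was called higher, at 0.15, under the correction and, at 0.07, without veliparib library 2. Over the list, 3 of 9 members were higher and 3 lower, 33.3% each, near the 31.7% and 27.7% of all genes.

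The remaining genes with the largest positive differences had no common list. PLD1, a phospholipase, had 6.9 and 5.6 CPM with olaparib, 0.536 and 0.83 CPM with veliparib and 1.45 and 0.824 CPM with DMSO. SELENBP1, a selenium-binding protein, had 1076 and 1111 CPM with olaparib, 387 and 426 CPM with veliparib and 430 and 440 CPM with DMSO, the highest expressed of them. MAN1A1, a mannosidase of the Golgi, and RDH10, a retinol dehydrogenase, were higher by 1.83 (SE 0.11) and 1.74 (SE 0.06). CSMD1, DAB1, CCDC80, CERK and ANKRD16 were higher by 1.70, 1.66, 1.51, 1.44 and 1.42, with standard errors of 0.05 to 0.13.

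Of 23 NRF2 targets, which serve the response to oxidative stress, 16 were higher and 3 lower with olaparib than with veliparib, where 31.7% and 27.7% of all genes were, with a median of 0.21. Against DMSO the medians were 0.23 with olaparib and -0.02 with veliparib. FTH1, the heavy chain of ferritin, had 458 and 481 CPM with olaparib, 198 and 211 CPM with veliparib and 339 and 344 CPM with DMSO. FTH1 differed from DMSO by 0.46 with olaparib and by -0.74 with veliparib on the log2 scale. Ferritin has many processed pseudogenes, so the FTH1 and FTL counts are uncertain. SRXN1, which repairs peroxiredoxins, had 20.2 and 17.8 CPM with olaparib, 9.86 and 8.6 CPM with veliparib and 16.6 and 16.9 CPM with DMSO. TXN, thioredoxin, had an interval of -0.07 to 0.12. The 3 lower members, named after their values were seen apart from NFE2L2, were GSR, ABCC1 and NFE2L2, which encodes NRF2, at -0.56, -0.49 and -0.31 in that order.

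Among 34 genes of the unfolded protein and integrated stress responses, 22 were higher (64.7%, against 31.7% of all genes) and 9 lower (26.5%, near the 27.7% of all genes), with a median of 0.28. Against DMSO the medians were 0.01 with olaparib and -0.21 with veliparib. CHAC1, which degrades glutathione, had 40.6 and 41.8 CPM with olaparib, 16 and 19.3 CPM with veliparib and 32.4 and 31 CPM with DMSO. CEBPB, a bZIP factor, had 48.5 and 46.6 CPM with olaparib, 29.3 and 27.9 CPM with veliparib and 48.8 and 47.2 CPM with DMSO, so the veliparib libraries alone lay apart. The CEBPB difference was 0.71 and, with the GC and length correction, 0.38. DDIT3, the factor CHOP, had 33.9 and 33.4 CPM with olaparib, 16.7 and 18.3 CPM with veliparib and 20.1 and 20.7 CPM with DMSO. DDIT4, an inhibitor of mTORC1, was higher by 1.01 (SE 0.04), and the chaperone CALR had an interval of -0.01 to 0.16.

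Immediate early genes had a similar layout. Of 17 measured, 9 were higher (52.9%) and 3 lower (17.6%) with olaparib, against 31.7% and 27.7% of all genes. The median was 0.28, or 0.19 with the GC and length correction. Against DMSO the medians were -0.04 with olaparib and -0.31 with veliparib. JUND, JUN and JUNB, subunits of AP-1, were higher by 1.03 (SE 0.05), 0.95 (SE 0.05) and 0.89 (SE 0.05). With the GC and length correction they stood at 0.61, 0.86 and 0.58. JUN had 105 and 106 CPM with olaparib, 53.3 and 54.7 CPM with veliparib and 70.7 and 68.2 CPM with DMSO. DUSP4, a phosphatase of MAP kinases, went the other way at -1.40 (SE 0.06).

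The split of higher and lower calls differed with GC content. Across 13075 genes the Spearman correlation of GC content with the difference between the compounds was 0.333, and with the difference from DMSO it was -0.118 for olaparib and -0.689 for veliparib. Among the 3269 genes of highest GC content, 54.6% were higher and 11% lower with olaparib, and among the 3269 of lowest GC content, 18.7% were higher and 39.9% lower. After the correction 3330 of 4180 higher calls and 2980 of 3628 lower calls kept their call and sign, 70 and 5 turned, and of the genes at least 2-fold apart all 86 higher and all 190 lower ones that could be corrected were still called. Of these, 63 and 152 were still at least 2-fold apart. GC content moves with small differences here, and its part in them was not tested beyond this correction.

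**Figure D5:**
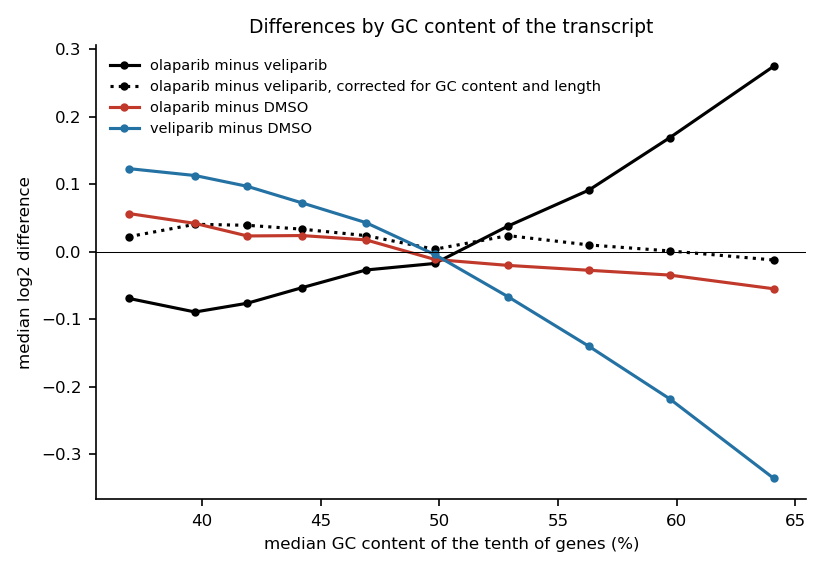
Median log2 difference in 10 bins of the 13075 genes with a known GC content, ordered by GC content (%). Veliparib minus DMSO (blue) runs from 0.12 in the lowest bin to -0.34 in the highest, olaparib minus DMSO (red) from 0.06 to -0.06, and the corrected difference between the compounds (dotted) stays between -0.01 and 0.04.

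Lipid and sugar metabolism held large differences in single genes only. In fatty acid synthesis 10 of 21 genes were lower (47.6%) and 4 higher (19%) with olaparib, against 27.7% and 31.7% of all genes. ELOVL7, an elongase of fatty acids, had 38.6 and 38.8 CPM with olaparib, 166 and 145 CPM with veliparib and 149 and 153 CPM with DMSO. ELOVL5, another elongase, had 266 and 267 CPM with olaparib, 717 and 661 CPM with veliparib and 649 and 663 CPM with DMSO. The desaturase FADS2 had an interval of -0.02 to 0.14.

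Of 28 cholesterol genes, 6 were higher (21.4%) and 8 lower (28.6%), against 31.7% and 27.7% of all genes. Counting called and uncalled genes together, 14 of the 28 had an interval within 0.25 of 0. Differences ran from -0.94 to 1.38. The summed levels were 4793 and 4813 CPM with olaparib, 5750 and 5868 CPM with veliparib and 5869 and 5829 CPM with DMSO. TM7SF2, a sterol reductase, had 565 and 554 CPM with olaparib, 211 and 220 CPM with veliparib and 292 and 296 CPM with DMSO. ABCG1, a sterol exporter, had 24.3 and 23.3 CPM with olaparib, 13.2 and 13.4 CPM with veliparib and 13.3 and 12.2 CPM with DMSO. SREBF2, the main activator of the pathway, had an interval of -0.12 to 0.03. Under the GC and length correction 14 cholesterol genes were called lower in place of 8.

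Of 32 glycolysis and hypoxia genes, 13 were higher (40.6%) and 8 lower (25%), against 31.7% and 27.7% of all genes, and 12 had an interval within 0.25 of 0. ADM, a peptide induced in hypoxia, had 6.08 and 6.11 CPM with olaparib, 1.75 and 1.59 CPM with veliparib and 2.21 and 1.59 CPM with DMSO. HK2, a hexokinase, had 48.7 and 49.7 CPM with olaparib, 85.1 and 89.6 CPM with veliparib and 98.7 and 91.6 CPM with DMSO. ENO1 and PKM, abundant glycolytic enzymes, had intervals of -0.12 to 0.05 and -0.02 to 0.15. Of 11 polyamine genes, 5 were higher (45.5%) and 3 lower (27.3%). SMS and AMD1, a synthase and a decarboxylase of the pathway, differed by -0.49 (SE 0.04) and -0.41 (SE 0.04). ODC1, the first enzyme of the pathway, had an interval of -0.05 to 0.09.

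Interferon, NF-kB and aryl hydrocarbon receptor genes had called members in both directions. Of 28 interferon-stimulated genes 6 were higher (21.4%) and 10 lower (35.7%), against 31.7% and 27.7% of all genes, with a median of -0.04. OAS3, a sensor of double-stranded RNA, had 16.8 and 17.7 CPM with olaparib, 36.5 and 39.7 CPM with veliparib and 39.3 and 37.4 CPM with DMSO, while IRF7 was higher by 0.82 (SE 0.09), or 0.46 with the GC and length correction, and TAP1 had an interval of -0.01 to 0.19. Of 12 NF-kB genes 2 were higher (16.7%) and 4 lower (33.3%), among them TNFAIP2 and TNFAIP3 at -0.56 (SE 0.13) and -0.54 (SE 0.13). Of 4 aryl hydrocarbon receptor genes, 2 were higher (50%) and 1 lower (25%), with TIPARP, a target of that receptor, at 0.26 (SE 0.09). TIPARP lost its call without veliparib library 2, where it stood at 0.11 (adjusted p = 0.376 with limma), without olaparib library 1 (0.159), with DESeq2 (0.128), with array weights (0.0535) and with no filter (0.0554), and DESeq2 called no member of this list higher.

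Several structural RNAs were highest with veliparib, and the olaparib libraries disagreed. RNA28S5, ribosomal RNA left in the libraries, had 234 and 124 CPM with olaparib, 743 and 805 CPM with veliparib and 118 and 115 CPM with DMSO. RN7SL1, which encodes the RNA part of the signal recognition particle, had 16.4 and 4.51 CPM with olaparib, 27.9 and 31.1 CPM with veliparib and 4.46 and 4.53 CPM with DMSO. The RN7SL1 difference of -1.64 (SE 0.27) was called in each case but stood at -2.47 without olaparib library 1 and -0.81 without library 2, and that of RNA28S5, at -2.17 (SE 0.15), was -2.63 and -1.72. SNORA76C, whose identifier is a small nucleolar host gene in GENCODE, had 10.6 and 11.1 CPM with olaparib, 26.3 and 25.7 CPM with veliparib and 9.37 and 11.1 CPM with DMSO. TERC, the RNA of telomerase, went the other way with 2.81 and 2.86 CPM with olaparib, 0.572 and 0.642 CPM with veliparib and 0.899 and 0.824 CPM with DMSO. Of 8 such RNAs tested 2 were higher (25%) and 4 lower (50%), against 31.7% and 27.7% of all genes. RNA28S5 and RN7SL1 had no known GC content, so the GC and length correction could not be applied to them. Copies of these RNAs in the genome make their counts uncertain, and how they relate to the noise of the veliparib libraries was not tested.

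For many genes the data bound the difference closely. In 3654 genes (27.4%) the 95% interval of the difference lay within 0.25 of 0 on the log2 scale. These intervals use 1 spread per gene shared by all 8 libraries, although the veliparib libraries were noisier. With array weights per group the number was 3049, and with only the 4 libraries compared it was 3109. Of the 5408 genes not called, 2976 (55%) had an interval within 0.25 of 0 in the main fit and 2432 had a wider one, for which similar levels were not shown. Such intervals depend on the correction and on single libraries: TXN (0.10) and CDH1 (0.10) were called higher and SREBF2 (-0.13) and ENO1 (-0.07) lower under the GC and length correction. Without veliparib library 1, SMAD4 (0.11) and TXN (0.11) were called higher and ENO1 (-0.08) and SREBF2 (-0.07) lower. Without veliparib library 2, NADK (0.09), PKM (0.13), CALR (0.15), FADS2 (0.12), ATP5B (0.07) and CDH1 (0.07) were called higher and CCNG1 (-0.14) lower. Of 31 oxidative phosphorylation genes 20 had such an interval, with 10 of the 31 higher and 3 lower. Of 32 ribosomal protein genes 22 had one, with 17 of the 32 higher and 1 lower. Under the GC and length correction 15 oxidative phosphorylation genes were higher and 5 lower, and 13 ribosomal protein genes higher and 5 lower. The largest differences in these lists were NDUFS7 of complex I at 0.61 (SE 0.05) and RPL13 at 0.37 (SE 0.04). With the correction they stood at 0.42 and 0.30. NDUFS7 differed from DMSO by 0.08 with olaparib and -0.52 with veliparib. RPL13 differed from DMSO by 0.09 with olaparib and -0.29 with veliparib. ATP5B of the ATP synthase had 2180 and 2210 CPM with olaparib, 2090 and 2146 CPM with veliparib and 2193 and 2210 CPM with DMSO. RPS6 had an interval of -0.10 to 0.06. The common controls ACTB and TBP had intervals of -0.14 to 0.04 and -0.07 to 0.25. ACTB was called lower under the correction, at -0.14, and without veliparib library 1, at -0.12. GAPDH, at 0.19 (SE 0.05), lost its call under the correction, where it stood at 0.03.

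Luminal prostate markers were the most abundant of the marker lists, as the labelled cell line would have. The 14 luminal genes summed to 4320 to 4350 CPM with olaparib, 4450 to 4490 CPM with veliparib and 4650 to 4740 CPM with DMSO. Of the 14, 5 were higher and 5 lower, 35.7% each, against 31.7% and 27.7% of all genes, and 3 were at least 2-fold lower. Among the 3 were SLC45A3, a transporter, and KRT19, a keratin, while FOLH1, which encodes prostate-specific membrane antigen, was higher by 0.58 (SE 0.04) and CDH1 had an interval of -0.01 to 0.13. Of 11 neuroendocrine markers 6 are in the table, summing to 72.0 to 76.2 CPM with olaparib, 40.2 to 41.5 CPM with veliparib and 47.5 to 50.1 CPM with DMSO, and NTS and ENO2 made up most of it. The defining markers CHGA and INSM1 were not analysed here. Of 10 stromal markers 7 are in it, summing to 20.1 to 20.6 CPM with olaparib, 19.9 to 22.4 CPM with veliparib and 23.4 to 24.0 CPM with DMSO, none called. Of 12 immune and endothelial markers 5 are in it, with sums of 5.72 to 6.36 CPM with olaparib, 9.0 to 10.0 CPM with veliparib and 10.6 to 11.7 CPM with DMSO, nearly all VWF. Of 8 basal markers 4 are in it, at 50.7 to 53 CPM with olaparib, 69.6 to 70.7 CPM with veliparib and 61.4 to 62.3 CPM with DMSO, mostly ITGA6 and DST, both lower with olaparib, and KRT5 and TP63, which define basal cells, were not analysed here. The part of these cell types in the results was not tested.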

How the data were processed

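The authors deposited a table of CPM values (reads scaled to library size) for 8 inhibitor libraries; dividing by the value of 1 read gave whole reads, within 0.01, for 100% of values above 0. Per the submitters' processing notes, which give no roles, the tools were edgeR 3.12.0, HTSeq 0.6.1, TopHat2 2.1.0 and bcl2fastq 2.18, with genome hg19. Per the labels' protocols, RNA was extracted with RNeasy and the kit was NEBNext Ultra RNA, which does not mark strand, so overlapping antisense partners cannot be told apart. The siRNA table was not used here.

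The test, as designed for normalised values, was limma 3.58.1 (trend) in R 4.3.3 on log2(CPM + 1), with a 2-sided p, a minimum mean of 1 CPM, all 8 libraries in 1 fit (residual df 4, prior df 17.6), Benjamini-Hochberg adjustment over 13337 genes and a threshold of 0.05. The median standard error was 0.06. Differences from DMSO were not tested. The method was checked on simulated counts. Alternatives were other pseudocounts, filters and scalings, edgeR 4.0.16 and DESeq2 1.42.0 on recovered reads, array weights, a replicate block, a GC and length correction, and leaving out each library. A symbol missing in the file (4941 features), turned into a date (24) or shared by several identifiers was taken from GENCODE by identifier. Promoters come from RefSeq (GRCh38.p14), the files from hg19, so no other coordinates are given.

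Genes were named by a rule: the 15 largest called differences each way among genes with a symbol, libraries that do not overlap and a mean log2 level of at least 1, up to 4 called and 2 uncalled members of each list, and a panel of genes; some genes the rule names are not reported here. The members and lists were chosen with earlier results of these data known.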

Additional observations from a re-analysis of the deposited data

How the results depend on the processing

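The 4229 higher and 3700 lower calls changed by less than 1.5 times under each of 22 alternatives, with 3435 to 4332 higher and 3007 to 3907 lower calls when 1 library was left out. The edgeR test split them as 3932 higher and 4003 lower, and DESeq2 as 3349 and 3337. The counts of at least 2-fold differences followed the scale: 88 higher became 141 with a pseudocount of 0.25, 39 with a pseudocount of 4, 167 with edgeR and 170 with DESeq2, and 196 lower became 101 with a pseudocount of 4, 318 with edgeR and 315 with DESeq2. Leaving out 1 library gave 88 to 98 higher and 192 to 218 lower. Genes with an interval within 0.25 of 0 numbered 3654, against 5645 with a pseudocount of 4 and 7163 with no filter, both of which add or shrink low genes, and 2667 to 3691 with 1 library left out. Of 4175 results for 191 named genes, 4075 kept direction and side of the threshold, 18 lost the call, 76 gained it and 6 reversed. The reversals were those of NTHL1 (-0.27), SOD2 (0.14) and AZIN1 (0.0926) under the GC and length correction, with and without the replicate block, and the cause was not tested. The replicate numbers pair nothing: deviations of same-numbered libraries correlated between -0.06 and 0.03. With the replicate block 4176 genes were higher and 3652 lower, 7801 of them also called without it. With 2 libraries a group, depth (26.4 to 35.7 M reads) limits weak genes, where 3 reads are up to 0.113 CPM.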
